A study of Mus musculus with 12 samples.

Results

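The chemokine genes Cxcl9, Cxcl10 and Cxcl11 and the gene of their shared receptor, Cxcr3, were followed through CT26 tumors of mice given the TLR7 agonist DSP-0509, an anti-PD-1 antibody, both or neither. The genes were chosen by name, and 4 of the 770 genes on the panel belong to the set. CT26 is a mouse colon carcinoma cell line, and it was implanted under the flank skin of BALB/c mice that were 6 to 10 weeks old. Mice entered their groups at a tumor volume of 130 to 170 mm3 by the sample labels, and all tumors were removed 4 days after dosing. The combination group had DSP-0509 at 5 mg/kg and anti-PD-1 antibody at 200 µg/mouse. The DSP-0509 group had only the intravenous agonist at 5 mg/kg, the anti-PD-1 antibody group had only the antibody at 200 µg/mouse, and the vehicle group had neither. Each group held 3 tumors, each from a mouse of its own, so all values below describe 1 cell line in 1 mouse strain at 1 time point. RNA came from whole tumors, in which fewer cells of a type and less RNA per cell cannot be told apart.

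CXCL9, CXCL10 and CXCL11 are small secreted proteins that attract cells carrying CXCR3, a G protein-coupled receptor found mainly on activated T cells and NK cells. All of the ligand genes are induced by interferon-gamma, and Cxcl10 answers strongly to type I interferon and NF-kappaB as well. In tumors, macrophages and dendritic cells are known sources of CXCL9, while many cell types, tumor cells included, can make CXCL10. TLR7 stimulation makes plasmacytoid dendritic cells release type I interferon, and blocking PD-1 releases a brake on T cells, which are a main source of interferon-gamma.

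In the RefSeq gene table of mouse genome build GRCm38.p6 the 4 genes were matched by symbol. The ligand genes are neighbours on chromosome 5, with no other listed gene among them, and Cxcr3 lies on the X chromosome. Cxcl11 is listed there as a transcribed pseudogene, an annotation of the C57BL/6J reference strain, whereas the tumors grew in BALB/c mice. The bases before the start of the Cxcl9 and Cxcl10 genes are shown because these neighbouring genes are known interferon targets. Each window holds the 250 bases before the start (Cxcl9 at chr5:92328080-92328329 and Cxcl10 at chr5:92348890-92349139, both on the minus strand), written 5′ to 3′. Capitals mark matches to 3 motifs searched on both strands, the interferon-stimulated response element core (GAAA, then any 2 bases, then GAAA), the interferon-gamma activated site TTCNNNGAA and the NF-kappaB consensus.
Cxcl9: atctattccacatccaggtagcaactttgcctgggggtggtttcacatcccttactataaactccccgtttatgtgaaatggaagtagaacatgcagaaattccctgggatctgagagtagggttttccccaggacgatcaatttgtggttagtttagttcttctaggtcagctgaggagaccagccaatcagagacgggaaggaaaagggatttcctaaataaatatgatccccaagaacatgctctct
Cxcl10: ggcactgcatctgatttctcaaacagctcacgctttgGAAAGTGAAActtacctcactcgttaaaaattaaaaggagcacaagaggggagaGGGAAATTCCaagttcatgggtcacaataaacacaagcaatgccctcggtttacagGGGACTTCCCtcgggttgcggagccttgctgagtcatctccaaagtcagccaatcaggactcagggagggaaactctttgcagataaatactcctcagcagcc
The Cxcl10 window held 1 response element core, which began 213 bases before the start, and 2 NF-kappaB matches, at 159 and 103 bases before it, and no matches overlapped. No motif was matched in these windows of Cxcl9 and Cxcr3, which says only that these letters are absent there. Of 32851 mouse promoters of the same length, 2.98% held the response element core, 7.02% the activated site and 3.90% the NF-kappaB consensus. A match is a description of the letters and does not show a binding site.

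On the nCounter system each RNA is caught by a gene-specific barcoded probe and counted without amplification, and a normalized count is that count after the authors scaled the tumor. Total counts were 750416 to 1155698 per tumor (median 951161), and negative control probes averaged 6.25 to 12.5 counts. Cxcl9 rested on 705 to 5137 counted molecules per tumor, Cxcl10 on 508 to 2634, Cxcl11 on 124 to 730 and Cxcr3 on 21 to 85. Cxcr3 was therefore the thinnest measurement, at 2.05 to 9.42 times the negative control mean of its tumor, close to background, while the ligands lay at no less than 11.5 times that mean. Probes differ between genes, so levels are compared between groups and never between genes. Fold changes are on the scale of log2(normalized count + 1), which understates changes of low genes. They were tested with limma over all 12 tumors, with p-values adjusted by the Benjamini-Hochberg method over the 646 endogenous genes that reached 20 normalized counts in 3 or more tumors, and a gene passed at an adjusted p under 0.05. All 4 genes were above that filter.

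Cxcl9 was higher in every combination tumor and every DSP-0509 tumor than in any vehicle tumor. It had 2436, 3388 and 4793 normalized counts in combination tumors 1 to 3. DSP-0509 tumors had 2462, 2981 and 2774, anti-PD-1 antibody tumors 1185, 2495 and 2974, and vehicle tumors 733, 1199 and 1046. The DSP-0509 tumors lay close together, the combination tumors were spread widely, and anti-PD-1 antibody tumor 1 fell within the vehicle range while the other 2 lay far above it. The means were 3539 ± 1186 in the combination, 2739 ± 261 with DSP-0509, 2218 ± 926 under anti-PD-1 antibody and 993 ± 238 with vehicle (SD, n = 3 each). Each group overlapped its neighbour in this order, anti-PD-1 antibody and vehicle through that single low tumor.

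Cxcl10, also called IP-10, followed the same order of groups. Its normalized counts were 1721, 2421 and 2458 in combination tumors. They were 1688, 1728 and 2323 in DSP-0509 tumors, 801, 1661 and 1708 in anti-PD-1 antibody tumors, and 528, 935 and 805 in vehicle tumors. The combination and DSP-0509 tumors shared most of their range, every combination tumor was above every anti-PD-1 antibody tumor, and anti-PD-1 antibody tumor 1 was again inside the vehicle range. The means were 2200 ± 415 in the combination, 1913 ± 356 with DSP-0509, 1390 ± 510 under anti-PD-1 antibody and 756 ± 208 with vehicle (SD, n = 3 each), and each group overlapped the next.

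Cxcl11, whose protein has the highest known affinity for CXCR3 of the ligands, was lowest in the 3 vehicle tumors among all 12. It had 391, 681 and 537 normalized counts in combination tumors and 433, 464 and 459 in DSP-0509 tumors. Anti-PD-1 antibody tumors had 169, 383 and 427, and vehicle tumors 129, 168 and 146. Every treated tumor was therefore above every vehicle tumor, but anti-PD-1 antibody tumor 1 exceeded the highest vehicle tumor by less than 1 normalized count. DSP-0509 tumors were all above the anti-PD-1 antibody tumors and varied little. The means were 536 ± 145 in the combination, 452 ± 16.9 with DSP-0509, 326 ± 138 under anti-PD-1 antibody and 148 ± 19.7 with vehicle (SD, n = 3 each).

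Cxcr3, the receptor, had a different order, with the DSP-0509 group lowest. Its normalized counts were 61.2, 79.3 and 77.5 in combination tumors and 33.5, 40.1 and 26.0 in DSP-0509 tumors. They were 46.0, 73.3 and 72.8 in anti-PD-1 antibody tumors and 22.9, 43.9 and 66.4 in vehicle tumors. The DSP-0509 tumors lay below every combination tumor and every anti-PD-1 antibody tumor, and inside the wide vehicle range. The means were 72.6 ± 9.93 in the combination, 33.2 ± 7.04 with DSP-0509, 64.0 ± 15.6 under anti-PD-1 antibody and 44.4 ± 21.8 with vehicle (SD, n = 3 each). Ordered by mean, the combination, anti-PD-1 antibody, vehicle and DSP-0509 groups each overlapped the next. The vehicle tumors of the receptor differed more among themselves, from about the level of the lowest DSP-0509 tumor to that of the combination, than those of any ligand did relative to their mean.

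**Figure D1:**
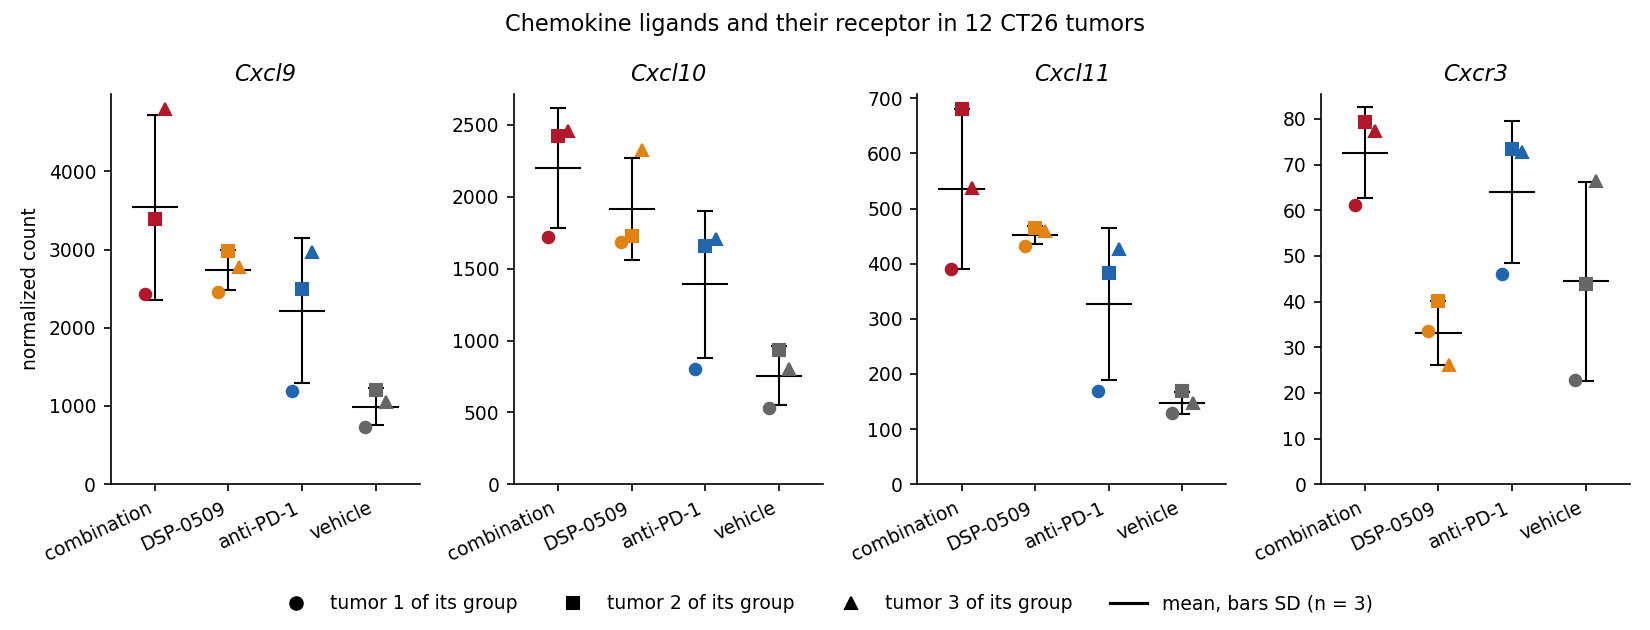
Normalized counts (vertical axis, from 0, a scale of its own for each gene) of Cxcl9, Cxcl10, Cxcl11 and Cxcr3 in 12 CT26 tumors, with the 4 groups along the horizontal axis; points are tumors, shapes give the tumor number, lines are means and bars SD (n = 3). The ligands are lowest with vehicle, where Cxcl11 averaged 148, and Cxcr3 is lowest with DSP-0509, at a mean of 33.2.

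In the combination against vehicle, Cxcl9, Cxcl10 and Cxcl11 rose, and Cxcr3 did not pass the test. Cxcl9 rose by 1.81 on the log2 scale (95% confidence interval 1.03 to 2.59, limma adjusted p = 0.00837), a 3.57-fold ratio of the group means. Cxcl10 rose by 1.56 (0.85 to 2.27, adjusted p = 0.00966) and Cxcl11 by 1.82 (1.11 to 2.54, adjusted p = 0.00616). Among the 646 genes tested, ordered from the highest fold change, Cxcl11 was in place 13, Cxcl9 in place 15 and Cxcl10 in place 36. The 3 of 4 genes that passed stand against 22.0% of the genes tested that passed in either direction in this comparison and 21.5% that passed as higher. Every combination tumor lay above every vehicle tumor for the 3 ligands, as it did for 38.5% of the genes tested. Cxcr3 had a log2 fold change of 0.81 (0.05 to 1.58, adjusted p = 0.113), in place 190. The number of genes that passed (142) was 59 without vehicle tumor 1, 70 without combination tumor 2 and 61 without combination tumor 3, and the 3 ligands passed whichever of the 12 tumors was left out. By the methods' t-test 4 genes passed and the ligands did not, at an adjusted p of 0.0840 for Cxcl9, 0.0840 for Cxcl10 and 0.0743 for Cxcl11. Cxcr3 passed without vehicle tumor 3 (1.16, adjusted p = 0.0269), its highest vehicle tumor, had a log2 fold change of 0.41 without vehicle tumor 1 (adjusted p = 0.384), and passed when tumors were rescaled by housekeeping genes (0.90, adjusted p = 0.0446). The median of all genes tested was itself 0.34 above vehicle on the log2 scale in the combination, 0.20 with DSP-0509 and 0.18 with anti-PD-1 antibody.

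In DSP-0509 against vehicle, the 3 ligands had fold changes near those of the combination, close to the threshold but not past it. The log2 fold change was 1.49 for Cxcl9 (95% confidence interval 0.71 to 2.27, limma adjusted p = 0.0585) and 1.36 for Cxcl10 (0.65 to 2.07, adjusted p = 0.0585). Cxcl11 stood at 1.61 (0.90 to 2.33, adjusted p = 0.0521), the fold change in place 3 of 646, with Cxcl9 in place 6 and Cxcl10 in place 10. None of the 4 genes passed, where 0.774% of the genes tested did. The ligands of every DSP-0509 tumor lay above those of every vehicle tumor, as was the case for 16.4% of the genes tested. Cxcr3 ran the other way, at a log2 fold change of -0.31 (-1.07 to 0.46, adjusted p = 0.632) in place 589 of 646, and its sign rested on vehicle tumor 3, without which it was 0.041. Without vehicle tumor 1 it was -0.71 (adjusted p = 0.437). Of 24 alternatives, Cxcl9 passed in 4, Cxcl10 in 5 and Cxcl11 in 11. With a tumor left out, the limma adjusted p reached 0.265 for Cxcl9, 0.260 for Cxcl10 and 0.172 for Cxcl11. All ligands passed when tumors were rescaled by housekeeping genes (adjusted p = 0.0146 to 0.0215) and, with the pooled spread alone changed, without anti-PD-1 antibody tumor 1 (adjusted p = 0.00918 to 0.0226). The 5 genes that passed became 0 by the methods' t-test, 17 without that tumor, 8 without vehicle tumor 2, 1 without DSP-0509 tumor 1 or tumor 3, and 0 without vehicle tumor 1 or tumor 3.

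In anti-PD-1 antibody against vehicle, the ligand means were 1.84 to 2.23 times those of vehicle and no gene of the set passed in the fit of all 12 tumors without a block. The log2 fold change was 1.09 for Cxcl9 (95% confidence interval 0.30 to 1.87, limma adjusted p = 0.207), 0.84 for Cxcl10 (0.13 to 1.55, adjusted p = 0.313) and 1.04 for Cxcl11 (0.32 to 1.75, adjusted p = 0.202). Cxcr3 stood at 0.61 (-0.15 to 1.38, adjusted p = 0.458). Of the genes tested, limma called 0 (0%), with 83 at an unadjusted p under 0.05, and the methods' t-test also called 0. Cxcl11 was above vehicle in every antibody tumor, as were 12.4% of the genes tested, and Cxcl9 and Cxcl10 in 2 of 3. With the tumor number as a block, Cxcl9 (adjusted p = 0.0354), Cxcl10 (adjusted p = 0.0429) and Cxcl11 (adjusted p = 0.0429) rose and Cxcr3 did not pass, among 4.95% of the genes tested that passed that fit. Without a block, Cxcl11 passed when anti-PD-1 antibody tumor 1 was left out (1.45, adjusted p = 0.0471), and all 4 genes passed with array weights, where each tumor is weighted by its distance from its group (adjusted p = 0.00576 to 0.0427). The count of 0 genes became 3 without that tumor, 9 without vehicle tumor 2 and 1 without DSP-0509 tumor 1.

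Set against DSP-0509, the combination had overlapping ligand levels and a mean Cxcr3 level 2.19 times as high, and no gene of the set passed. The log2 fold changes of the combination over DSP-0509 were 0.32 for Cxcl9 (95% confidence interval -0.46 to 1.10), 0.20 for Cxcl10 (-0.51 to 0.91) and 0.21 for Cxcl11 (-0.51 to 0.92), and these turned to -0.012, -0.13 and -0.12 under centring on the median gene. Cxcr3 stood at 1.12 (0.35 to 1.88), in place 8 of 646, with every combination tumor above every DSP-0509 tumor, as for 16.7% of the genes tested. Its unadjusted p was 0.00846 and its limma adjusted p 0.364, and it did not pass under any alternative (adjusted p = 0.0664 to 0.513) or without any tumor (0.231 to 0.794). In this comparison limma called 0 of the genes tested (0%), with 64 at an unadjusted p under 0.05 and 0 called by the methods' t-test, and 1 gene outside the set (0.155%) passed with the tumor number as a block. The count was 2 without DSP-0509 tumor 1.

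The combination over anti-PD-1 antibody had positive log2 fold changes for the ligands, at 0.72 for Cxcl9 (95% confidence interval -0.06 to 1.50), 0.72 for Cxcl10 (0.02 to 1.43) and 0.79 for Cxcl11 (0.07 to 1.50). None passed, with limma adjusted p-values of 0.468 to 0.531. Without anti-PD-1 antibody tumor 1 they were lower, at 0.32 for Cxcl9, 0.37 for Cxcl10 and 0.37 for Cxcl11. Cxcl10 was higher in every combination tumor than in every antibody tumor, as were 15.5% of the genes tested. Cxcr3 stood at 0.20 (-0.56 to 0.97, adjusted p = 0.853), and its sign turned under quantile normalization (-0.0081), under centring on the median gene (-0.046) and without anti-PD-1 antibody tumor 1 (-0.017). Here limma called 0 of the genes tested (0%), with 66 at an unadjusted p under 0.05 and 0 by the methods' t-test, and 3 genes outside the set (0.464%) passed with the block.

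DSP-0509 over anti-PD-1 antibody had opposite signs for the receptor and its ligands, and no gene of the set passed. Cxcr3 had a log2 fold change of -0.92 (95% confidence interval -1.68 to -0.15, unadjusted p = 0.0233, limma adjusted p = 0.999), in place 639 of 646. All DSP-0509 tumors were below all antibody tumors, as for 4.49% of the genes tested. The ligands stood at 0.40 for Cxcl9, 0.52 for Cxcl10 and 0.58 for Cxcl11 (adjusted p = 0.999 each), and only Cxcl11 was higher in every DSP-0509 tumor, as were 1.55% of the genes tested. The 95% confidence interval of each ligand included 0. Without anti-PD-1 antibody tumor 1 the ligands were at 0.0036, 0.17 and 0.16, while Cxcr3 ran from -1.14 to -0.76 with a tumor left out. Limma called 0 genes (0%), with 25 at an unadjusted p under 0.05 and 0 by the methods' t-test. The interaction of both treatments, which asks whether the combination differs from the sum of the single effects, was -0.77 for Cxcl9, -0.64 for Cxcl10, -0.83 for Cxcl11 and 0.51 for Cxcr3 on the log2 scale. None passed (adjusted p = 1.00 each), limma called 0 genes (0%) with 9 at an unadjusted p under 0.05, and the interval of Cxcl11, for example, was -1.84 to 0.18.

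**Figure D2:**
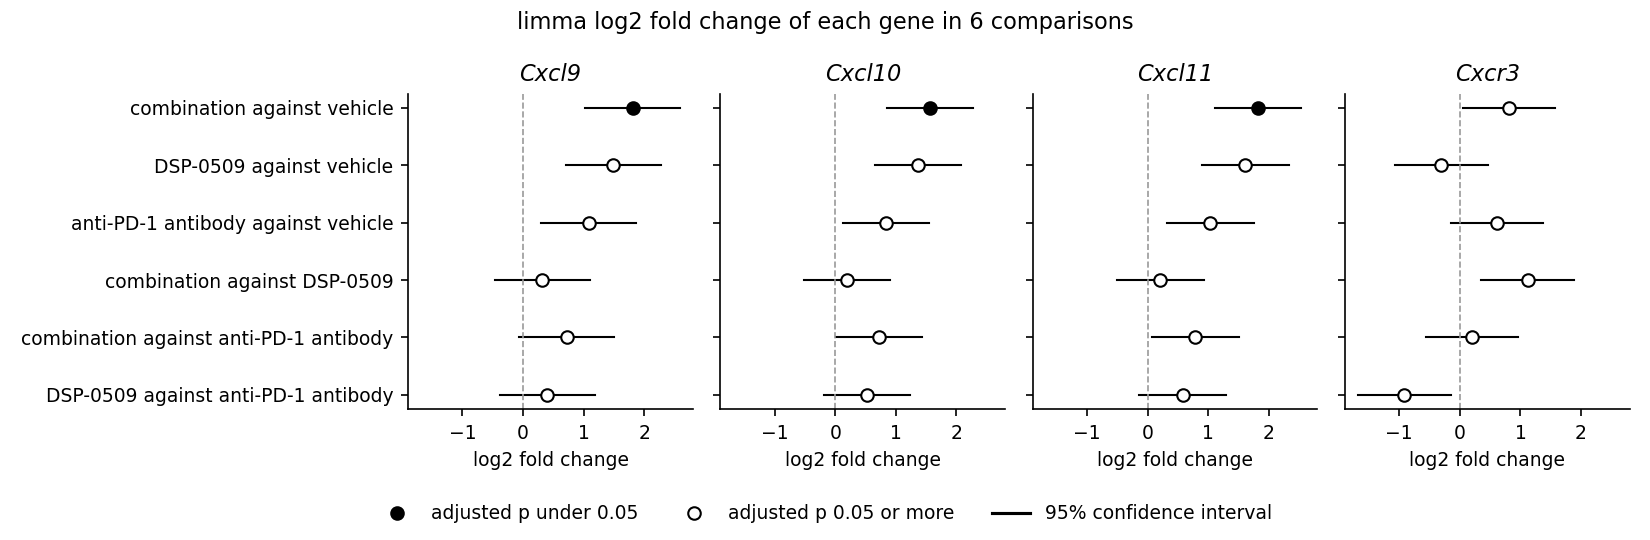
Log2 fold change from limma (horizontal axis) of each gene in 6 comparisons of groups (vertical axis), with 95% confidence intervals as lines and filled points for an adjusted p under 0.05. Only the 3 ligands in the combination against vehicle are filled, at 1.81, 1.56 and 1.82, and Cxcr3 lies left of 0 in both comparisons that have DSP-0509 first.

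The ratio of a ligand to Cxcr3 within a tumor does not depend on the scaling of that tumor, since a factor common to both genes cancels up to the added 1. It was highest with DSP-0509 for each ligand. For Cxcl9 over Cxcr3, the log2 ratio averaged 5.54 ± 0.34 in the combination, 6.34 ± 0.30 with DSP-0509, 5.02 ± 0.34 under anti-PD-1 antibody and 4.55 ± 0.52 with vehicle (SD, n = 3 each). The difference from vehicle was thus 1.00 in the combination, 1.79 with DSP-0509 and 0.47 with anti-PD-1 antibody. For Cxcl10 over Cxcr3 it was 0.75, 1.67 and 0.23 in the same order of groups, and for Cxcl11 over Cxcr3 it was 1.01, 1.92 and 0.43. The combination and DSP-0509 ratios did not overlap those of vehicle for any ligand, and the anti-PD-1 antibody ratios overlapped them for all. The share of all genes whose ratio to Cxcr3 separated in this way was not computed. Taken alone, 38.5% of the genes tested were above vehicle in every combination tumor and 16.4% in every DSP-0509 tumor. Background was not subtracted and does not cancel in a ratio, and Cxcr3 lay close to it. Over 6 pairs of genes and 3 treatments, 18 ratios were compared by a two-sided exact permutation test, which with 3 against 3 tumors cannot give a p below 0.1. The 6 ratios of a ligand to Cxcr3 in the combination and DSP-0509 reached that p of 0.1 (adjusted p = 0.225).

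Ratios between the ligands were closer to those of vehicle. Cxcl9 over Cxcl10 had a log2 difference from vehicle of 0.25 in the combination, 0.13 with DSP-0509 and 0.25 with anti-PD-1 antibody, and did not overlap vehicle in the combination and with the antibody (exact permutation p = 0.1, adjusted p = 0.225, in both). Cxcl9 over Cxcl11 differed by -0.015, -0.12 and 0.049 in these groups, and Cxcl10 over Cxcl11 by -0.26, -0.25 and -0.20, all with overlapping tumors.

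**Figure D3:**
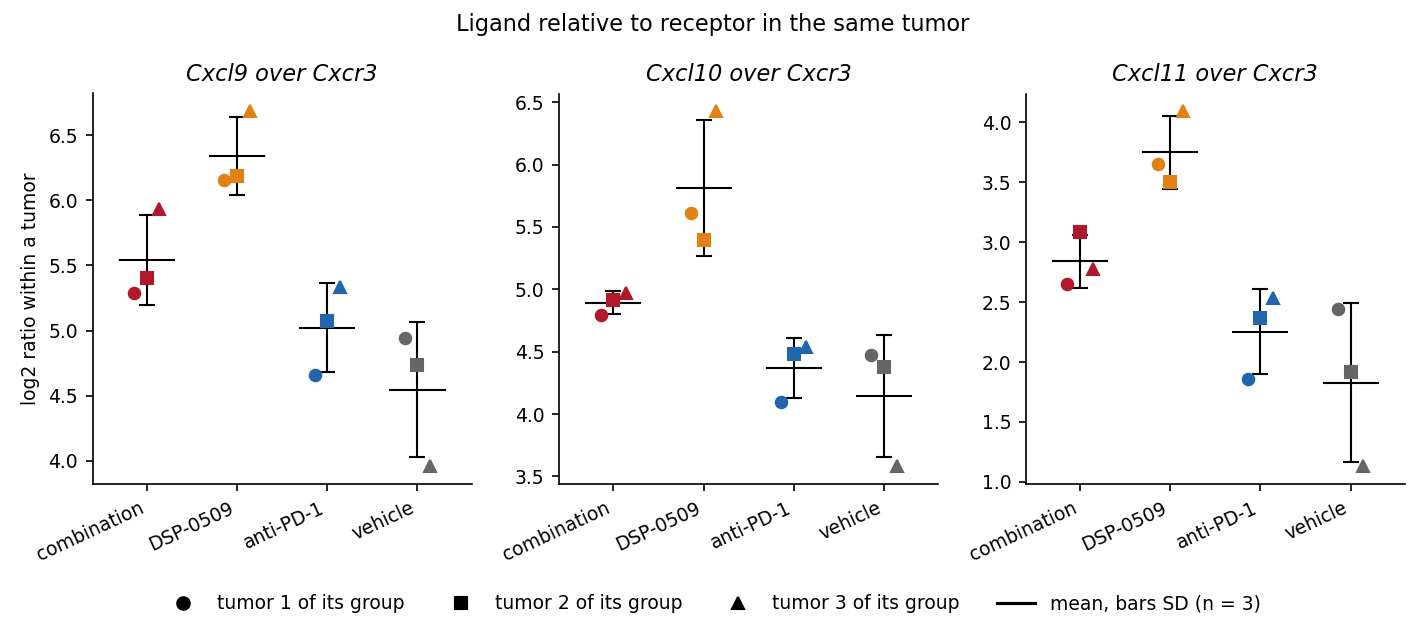
Log2 ratio of each ligand to Cxcr3 within a tumor (vertical axis) in the 4 groups (horizontal axis); points are tumors, shapes give the tumor number, lines are means and bars SD (n = 3). DSP-0509 tumors have the highest ratios for every ligand, with a mean of 6.34 for Cxcl9, and vehicle tumors the lowest means.

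Over the 12 tumors, the profile of each ligand had the other ligands among its 3 nearest genes. Likeness was measured as the root mean square difference of log2 values after each gene was centred on its mean, with no test, and the tumors share their groups and scaling. Cxcl9 lay 0.195 from Cxcl10, 0.205 from Cxcl11 and 0.224 from Gbp5, a guanylate-binding protein induced by interferon-gamma, where the median gene lay 0.715 from it. Cxcl10 was nearest to Psmb10, an immunoproteasome subunit, at 0.160, followed by Cxcl9 and, at 0.199, Cxcl11. Cxcl11 was nearest to Cxcl10 and Cxcl9, with Gbp5 next at 0.260. Cxcr3 had no neighbour as close, and it lay 0.716 to 0.797 from the ligands. The root mean square about the gene's own mean was 0.783 for Cxcl9, 0.696 for Cxcl10, 0.788 for Cxcl11 and 0.587 for Cxcr3. Cxcr3 rested on only 21 to 85 molecules per tumor, and the part of its low counts in these distances was not tested. Its nearest genes were Tcf7, a transcription factor of naive and memory T cells, at 0.351, Ctss, the protease cathepsin S, at 0.351, and Cd48, a surface protein of leukocytes, at 0.353, with the median gene at 0.582.

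Among the genes that induce these ligands and carry the interferon signal, 4 of the 18 above the filter (of 22 listed) rose in the combination against vehicle, a share near the 21.5% of all genes tested that rose. Among them were Ifng, which encodes interferon-gamma itself (log2 fold change 1.44, limma adjusted p = 0.0236), Irf1 (1.26, adjusted p = 8.78e-04) and Irf7 (1.02, adjusted p = 0.0466), both interferon regulatory factors. At the other end, Irf3 stood at -0.12 and Rela, an NF-kappaB subunit, at -0.11, and neither passed. The list's median log2 fold change was 0.36, beside 0.34 for all genes tested. With DSP-0509 0 of the 18 passed (median 0.23), and with anti-PD-1 antibody 0 (median 0.15). Ifng was counted near background, at 30.6, 33.6 and 70.0 normalized counts in combination tumors, 33.5, 20.5 and 21.0 with DSP-0509, 19.3, 36.7 and 39.3 under anti-PD-1 antibody, and 12.5, 12.2 and 20.9 with vehicle. Combination tumors were all above vehicle tumors for Ifng, as for 38.5% of the genes tested.

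Antiviral genes that interferon also induces formed a further list. Of 22 above the filter (of 24), 13 rose in the combination against vehicle (median 0.86), where 21.5% of all genes tested did (median 0.34). With DSP-0509 (median 0.38) or anti-PD-1 antibody (median 0.41) 0 passed. Zbp1, a nucleic acid sensor, had a log2 fold change of 1.68 (adjusted p = 0.00277) and Ifi44l of 1.37 (adjusted p = 0.0767), while Ifi35 at 0.43 and Isg20, an exonuclease, at 0.32 had the smallest and did not pass. All of these medians were below the fold changes of the 3 ligands.

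The T-bet programme is the set of genes that accompanies CXCR3 on T cells and NK cells. In the combination against vehicle 8 of 9 of its genes rose (median 1.44), where 21.5% of all genes tested did (median 0.34). The list was chosen with earlier results of these data known, and its gene Ifng is also in the list of inducers above. Cxcr3 itself did not pass. Gzmb, the cytotoxic protease granzyme B, stood at 1.70 (adjusted p = 0.00741) and Il12rb2, a chain of the interleukin receptor that drives T-bet, at 1.63 (adjusted p = 7.45e-04). The lowest were Eomes, a T-box factor, at 0.96 (adjusted p = 0.0955) and Stat4 at 0.86 (adjusted p = 0.0392). With DSP-0509, 2 of 9 passed (median 0.85), Il12rb2 at 1.09 and Prf1, which encodes perforin, at 1.28. Of all genes tested 0.774% passed there (median 0.20). With anti-PD-1 antibody 0 passed (median 0.64).

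Some of the other chemokines and their receptors rose in the combination against vehicle, where 21.5% of all genes tested did (median 0.34). Whether the shares of these small lists differ from that was not tested. Of 9 CXC chemokines above the filter (of 10), 1 rose, Cxcl12, a stromal chemokine that binds CXCR4, at 2.13 (adjusted p = 0.0142), and the median was 0.24. Cxcl13, which attracts B cells, stood at 1.84 (adjusted p = 0.0553), while the neutrophil attractants Cxcl2 at -0.33 and Cxcl1 at -0.76 did not pass. Of 19 CC, C and CX3C chemokines (of 23), 3 rose (median 0.37), Ccl5, which attracts T cells, at 2.28, Ccl11, or eotaxin, at 2.01 and Ccl8 at 1.92, while Ccl17 at -0.20 and Ccl12 at -0.44 did not pass. Of 13 other chemokine receptors (of 17), 2 rose (median 0.28), Cxcr6, the receptor for CXCL16, at 1.69 (adjusted p = 0.0170) and the atypical receptor gene Ccrl2 at 0.89 (adjusted p = 0.0487). The receptors that did not pass began with the eosinophil receptor gene Ccr3 at 1.11 (adjusted p = 0.0587) and ended with Ccr9 at -0.0086 and Cx3cr1 at -0.54. No gene of these 3 lists passed with DSP-0509, where the medians were -0.25, 0.16 and 0.069, or with anti-PD-1 antibody, where they were 0.38, 0.18 and 0.40. Dpp4, the protease that clips and weakens these chemokines, rose in the combination (1.30, adjusted p = 0.0384) and was not called with DSP-0509 (0.81) or anti-PD-1 antibody (0.83).

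**Figure D4:**
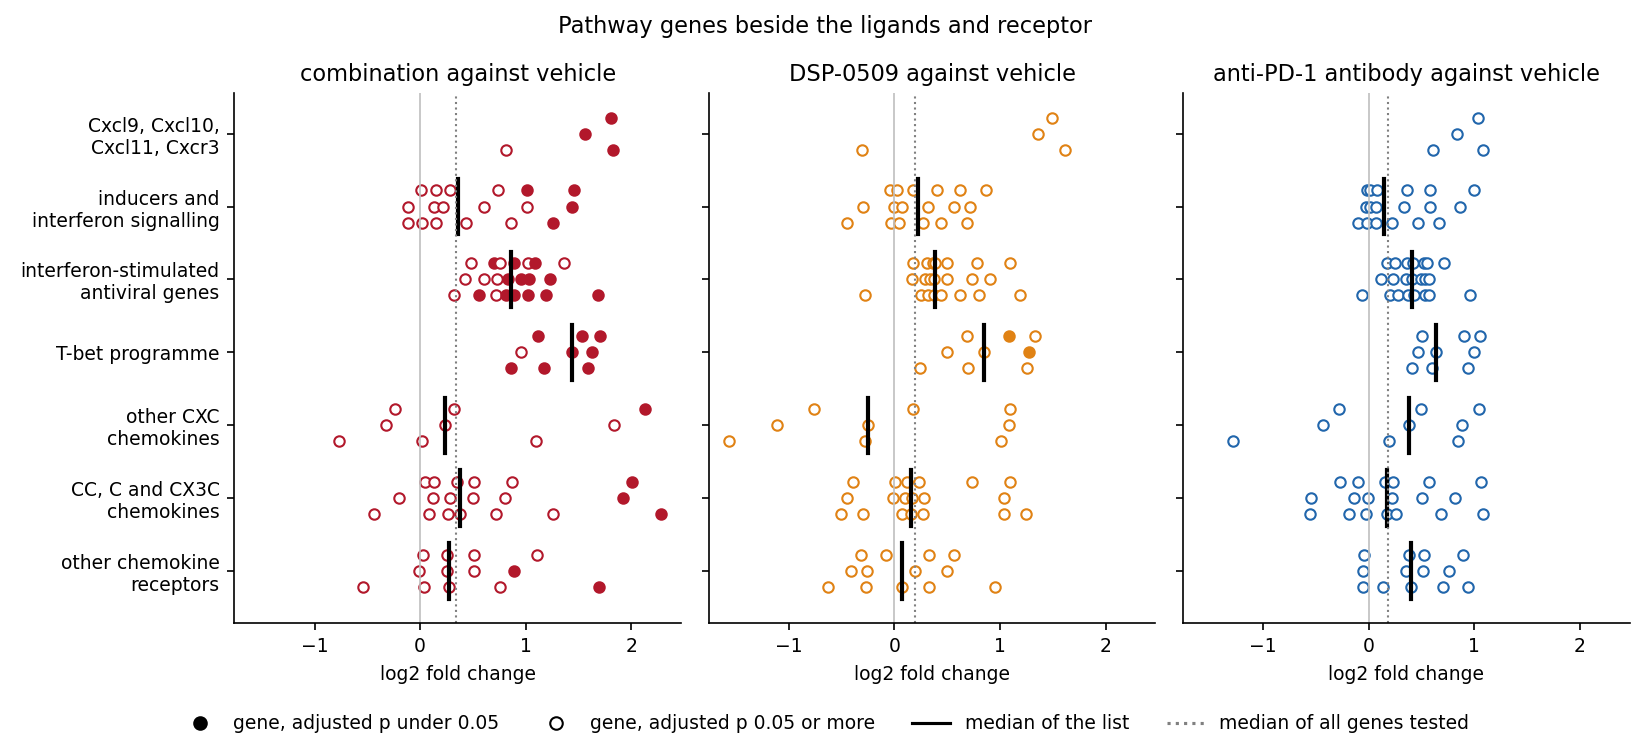
Log2 fold change against vehicle (horizontal axis) of the 4 genes and of 6 pathway lists (vertical axis) in the combination and in the groups given a single agent; points are genes, filled at an adjusted p under 0.05, black lines are list medians and dotted lines the median of all genes tested. In the combination 3 of the 4 genes and 8 of 9 T-bet programme genes are filled, and with anti-PD-1 antibody none.

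In the combination against vehicle, where 22.0% of the genes tested passed, 3 of 6 T cell markers, 2 of 2 CD8 T cell markers and 1 of 3 NK cell markers above the filter passed, all higher. The summed T cell markers were 858 to 1767 normalized counts in the combination, 644 to 654 with DSP-0509, 612 to 902 with anti-PD-1 antibody and 285 to 487 with vehicle, so vehicle lay below all treated tumors. Of the single genes tested, 38.5% lay wholly above vehicle in the combination, 16.4% with DSP-0509 and 12.4% with anti-PD-1 antibody. The CD8 T cell markers Cd8a and Cd8b1 summed to 225 to 561 in the combination, 164 to 218 with DSP-0509, 168 to 220 under anti-PD-1 antibody and 69.6 to 127 with vehicle. The summed NK cell markers were 1078 to 2271, 1006 to 1191, 625 to 1479 and 306 to 843 in that order of groups, so antibody tumors overlapped vehicle. The macrophage and monocyte markers, from cells known to make CXCL9, summed to 8294 to 10520 in the combination, 6596 to 8609 with DSP-0509, 5270 to 9196 with anti-PD-1 antibody and 5447 to 9782 with vehicle, and 1 of 6 passed. Fibroblast markers passed in 3 of 4 (sums 17762 to 32797 in the combination, 12725 to 16036 with DSP-0509, 6358 to 15797 under anti-PD-1 antibody and 3082 to 18271 with vehicle) and neutrophil markers in 1 of 4, and no dendritic cell, CD4 T cell, B cell, endothelial, epithelial or pan-leukocyte marker passed. With either agent alone no marker passed. The epithelial markers Epcam and Cdh1 gave a low signal, with sums of 65.5 to 183 in the combination, 52.5 to 248 with DSP-0509, 77.0 to 157 under anti-PD-1 antibody and 69.2 to 72.8 with vehicle. The part of these cells in the levels of the 4 genes was not tested.

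Cxcr3 was also set against the T cell receptor complex genes Cd3d, Cd3e and Cd3g of the same tumor, a measure chosen after the values had been seen. The mean log2 level of Cd3 was 8.26 ± 0.53 in the combination, 7.43 ± 0.08 with DSP-0509, 7.75 ± 0.24 under anti-PD-1 antibody and 6.77 ± 0.47 with vehicle (SD, n = 3 each). Log2 Cxcr3 minus that mean was -2.06 ± 0.46 in the combination, -2.35 ± 0.27 with DSP-0509, -1.76 ± 0.14 under anti-PD-1 antibody and -1.39 ± 0.38 with vehicle (SD, n = 3 each). Every treated tumor was below every vehicle tumor, with -2.57 to -1.67 in the combination, -2.59 to -2.06 with DSP-0509, -1.91 to -1.66 under anti-PD-1 antibody and -1.65 to -0.95 with vehicle, so the highest antibody tumor and the lowest vehicle tumor nearly met. No test was run on this measure, and the share of all genes that separate in this way against Cd3 was not computed. Cxcr3 was close to background, which was not subtracted, so its changes are understated and the difference falls where Cd3 rises. The level of Cxcr3 per T cell was not measured.

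**Figure D5:**
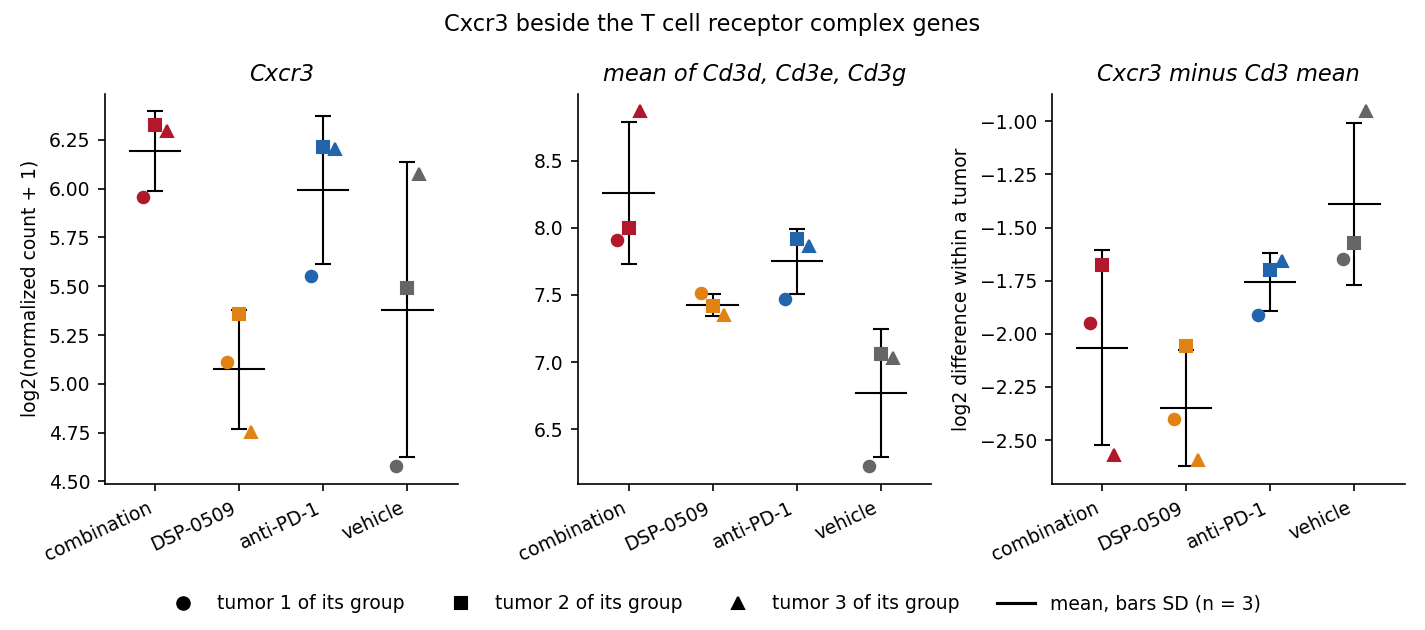
Log2 level of Cxcr3, mean log2 level of Cd3d, Cd3e and Cd3g, and the difference of both within a tumor (vertical axes, each on its own range that does not start at 0) in the 4 groups (horizontal axis); points are tumors, shapes give the tumor number, lines are means and bars SD (n = 3). Cd3 is lowest with vehicle, at a mean of 6.77, where Cxcr3 relative to Cd3 is highest, at -1.39.

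The tumors numbered 1 stood apart for the ligands. In all 12 sets of a ligand and a group, tumor 1 was the lowest of its 3, and for Cxcr3 it was the lowest in 3 of 4 groups. Of the 646 genes tested, 24.5% also had tumor 1 lowest in all 4 groups. Summed neutrophil markers of tumor 1 were the highest of its group each time, at 3947 in the combination, 4183 with DSP-0509, 4212 under anti-PD-1 antibody and 2791 with vehicle. Tumor 1 was the lowest of its group each time for the summed macrophage and monocyte, NK cell and CD8 T cell markers. The same held for the CD4 T cell and pan-leukocyte markers. The other marker sums were not lowest in tumor 1 of every group. Without the 4 tumors numbered 1, an alternative chosen after seeing the data, the ligands still passed in the combination against vehicle, at log2 fold changes of 1.85 for Cxcl9, 1.49 for Cxcl10 and 1.94 for Cxcl11 (limma adjusted p = 0.0031 to 0.00636). Cxcl11 then also passed with DSP-0509 (1.55, adjusted p = 0.0400), and no other call of the 4 genes changed. No source says what the tumor numbers mark, and the part of tumor number in these values was not tested.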

How the data were processed

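Total RNA of 12 whole CT26 tumors was counted by the authors on the nCounter mouse PanCancer Immune panel and normalized in nSolver 4.0. What they deposited is a signal, molecule counts times 1 factor per tumor without background subtraction, and the steps between its values gave the counts per tumor (100% of values above 1 whole within 0.1). Which genes set that factor is not given in the sources used here. Endogenous genes (646 of 750, filter of 20 in 3 tumors) were fitted on log2(value + 1) with limma 3.58.1 in R 4.3.3, without covariates. Ratios were tested with scipy 1.17.1 under Python 3.11.15, and plots made with matplotlib 3.10.9. The 4 members and the gene lists were chosen with earlier results of these data known. Named beside the members were the 3 genes most like each and, per list, the 2 highest and 2 lowest fold changes in the combination against vehicle. Irf1, Irf7, Ccl8, Ccrl2 and Prf1 were named after their values were seen, since few genes of their lists passed. A gene that the rule selects is not reported here. P-values measure the spread between tumors, each of a separate mouse.

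Whether tumor numbers pair the tumors was checked through the correlation of deviations from group means. All 3 same-numbered pairs exceeded 0.1 in anti-PD-1 antibody against vehicle (0.18 to 0.68), in the combination against DSP-0509 (0.32 to 0.59) and in the combination against anti-PD-1 antibody (0.14 to 0.69), although no source says what a number marks. In that order of comparisons, 5, 6 and only 3 of 6 tumors correlated best with their own number. The blocked fit stands beside these results where it changed a call or a count. In simulated data for the combination against vehicle (646 genes, 200 changed, 10 runs), the method recovered 33.0% of genes changed 1.5-fold, 68.4% changed 2-fold, 84.2% changed 3-fold and 92.0% changed 4-fold, with 4.2% of calls false. Alternatives were a pseudocount of 10, a filter of 50 or none, rescaling to the housekeeping genes, quantile normalization, centring on the median gene, background subtraction, a fit of only the groups compared, array weights, the methods' t-test, the replicate block and each tumor left out. Promoters came from RefSeq (GRCm38.p6), which held 3 of the 4 genes.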

Additional observations from a re-analysis of the deposited data

How the results depend on the processing

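Of 990 values recomputed under alternatives, 906 stayed the same by the rule for their kind. A fold change had to keep its direction and its side of the threshold, and a ratio of 2 members only its direction. The number of genes that passed had to stay near the main number, and a group mean within its SD. In the combination against vehicle the 3 ligands kept their call under all alternatives other than the methods' t-test, after which Cxcl9 (1.81, adjusted p = 0.0840), Cxcl10 (1.56, adjusted p = 0.0840) and Cxcl11 (1.82, adjusted p = 0.0743) did not pass. Over the 12 tumors left out in turn they ran from 1.32 to 2.05 on the log2 scale. Over the other alternatives Cxcl9 ran from 1.28 to 1.89, Cxcl10 from 1.03 to 1.65 and Cxcl11 from 1.29 to 1.94. Cxcr3 in that comparison passed after rescaling to the housekeeping genes (0.90), with array weights (0.72, adjusted p = 0.0190) and in 1 of 12 fits that left a tumor out (range 0.41 to 1.16), and over the other alternatives it ran from 0.24 to 1.07.

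In DSP-0509 against vehicle, rescaling to the housekeeping genes brought Cxcl9 (1.50), Cxcl10 (1.37) and Cxcl11 (1.62) past the threshold, as did array weights (1.36, 1.07 and 1.52). Cxcl10 (1.20) and Cxcl11 (1.30) passed after quantile normalization. Cxcl11 also passed with a pseudocount of 10 (1.56), a filter of 50 (1.61), centring on the median gene (1.41), a fit of only those groups (1.61) and without the 4 tumors numbered 1 (1.55). Over all 24 alternatives, fits that left a tumor out included, Cxcl9 passed in only 4, Cxcl10 in 5 and Cxcl11 in 11. With a tumor left out, the ligands ran from 1.29 to 1.64 (Cxcl9), 1.12 to 1.54 (Cxcl10) and 1.52 to 1.71 (Cxcl11), and Cxcr3 from -0.71 to 0.041, a change of sign. With anti-PD-1 antibody, array weights brought Cxcl9 (1.21), Cxcl10 (0.91), Cxcl11 (1.27) and Cxcr3 (0.64) past the threshold, and Cxcl11 ran from 0.79 to 1.45 with a tumor left out.

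The tumor number as a replicate block gave the same log2 fold changes with smaller p-values. Against vehicle, Cxcl9 (1.49), Cxcl10 (1.36) and Cxcl11 (1.61) passed with DSP-0509 (adjusted p = 0.00652 each), and Cxcl9 (1.09), Cxcl10 (0.84) and Cxcl11 (1.04) passed with anti-PD-1 antibody. The block moved the number of genes that passed to 250 in the combination and 81 with DSP-0509 (in each of these comparisons only 1 of 3 pairs of same-numbered tumors correlated over 0.1 and 2 of 6 tumors correlated best with their own number), 32 with anti-PD-1 antibody, 1 in the combination against DSP-0509 and 3 in the combination against anti-PD-1 antibody. It changed no other call of the 4 genes.

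Signs turned for Cxcl9 (-0.012), Cxcl10 (-0.13) and Cxcl11 (-0.12) in the combination against DSP-0509 when centred on the median gene. They turned for Cxcr3 in the combination against anti-PD-1 antibody after quantile normalization (-0.0081) and centring (-0.046), and it ran from -0.017 to 0.32 with a tumor left out. Of the ratios that overlapped vehicle, Cxcl9 over Cxcl11 in the combination turned with a pseudocount of 10 (0.036) and ran from -0.24 to 0.18 with a tumor left out. With a tumor left out, Cxcl9 over Cxcl10 ran from -0.0027 to 0.26 with DSP-0509, and with anti-PD-1 antibody Cxcl9 over Cxcl11 ran from -0.061 to 0.10 and Cxcl10 over Cxcr3 from -0.055 to 0.39.

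The number of genes that passed varied more than the ligands did. For the combination against vehicle it was 142, with 232 after rescaling to the housekeeping genes, 92 in a fit of only those groups, 286 with array weights, 4 by the methods' t-test, and 59 to 174 with a tumor left out. For DSP-0509 it was 5, with 11 (pseudocount 10), 13 (filter of 50), 28 (housekeeping genes), 10 (quantile), 1 (only those groups), 38 (array weights), 0 (the methods' t-test), 1 without the 4 tumors numbered 1 and 0 to 17 with a tumor left out. For anti-PD-1 antibody it was 0, with 165 under array weights and 0 to 9 with a tumor left out. It was 1 for the combination against DSP-0509 after rescaling to the housekeeping genes and with array weights (0 to 2 with a tumor left out), 25 for the combination against anti-PD-1 antibody with array weights, and 1 for DSP-0509 against anti-PD-1 antibody with array weights. The cause of these changes was not tested.

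Leaving out the 4 tumors numbered 1 and setting Cxcr3 against Cd3 were chosen after seeing the data. A planned count test was not run. The methods' t-test and the fit of only the groups compared give no value for the interaction. Depth limits Cxcr3 most, with 21 to 85 molecules per tumor.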
